A study of Mus musculus with 12 samples.

Results

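The genes of cholesterol and fatty acid synthesis form a list of 36 members that was taken by gene symbol from the deposited table of 51490 genes. All 36 were found in the table and all 36 passed the filter on low counts that left 15037 genes for testing. Of the members, 6 act on the mevalonate steps, 3 lead from farnesyl diphosphate to lanosterol, and 8 convert lanosterol to cholesterol. Another 5 sense sterols or belong to the SREBP pathway, 4 move or esterify sterols, and 3 make or use acetyl-CoA. A further 3 build and elongate fatty acids, and 4 are fatty acid desaturases. The acetyl-CoA group, named acetyl-CoA supply in the figures, holds *Acss2* and *Acly*, which make it, and *Acat2*, which uses it. *Acat2* starts the mevalonate pathway but is not counted among the 6 genes of the mevalonate steps. Cholesterol is built from acetyl-CoA through mevalonate, squalene, and lanosterol, and fatty acids are built from the same precursor by acetyl-CoA carboxylase and fatty acid synthase. When membrane sterol is scarce, the escort protein encoded by *Scap* carries the SREBP transcription factors, encoded by *Srebf1* and *Srebf2*, out of the endoplasmic reticulum, and the cleaved SREBPs activate genes of both pathways. The proteins encoded by *Insig1* and *Insig2* hold this complex back when sterol is plentiful, and the insulin and growth factor receptors that activate PI3K and Akt are known to act on SREBP processing.

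The study asked how the RNA-binding protein Srsf3 contributes to gene expression downstream of the receptor PDGFRα in iMEPM cells, an immortalized line of mouse embryonic palatal mesenchyme derived from a male *Cdkn2a*-/- embryo. The line was transduced with lentivirus carrying a scramble shRNA (scramble) or an shRNA against the 3' UTR of *Srsf3* (shSrsf3), and both lines carry puromycin resistance and GFP. Cultures of each line received the ligand PDGF-AA at 10 ng/mL for 1 hr (+PDGF-AA) or none (-PDGF-AA). The labels give growth medium with 10% fetal bovine serum and 9 to 20 passages for all groups. The methods of the study describe serum starvation before PDGF-AA treatment but do not restate it for the sequenced samples, so the serum condition at harvest is uncertain here. This gave 4 groups, namely scramble -PDGF-AA, shSrsf3 -PDGF-AA, scramble +PDGF-AA, and shSrsf3 +PDGF-AA, with 3 biological replicates each and 12 samples in all. All groups share the *Cdkn2a* deletion, the immortalization, and drug selection followed by sorting for high GFP. Each shRNA is represented by 1 cell line, so an effect of the shRNA and a difference between the 2 lines cannot be told apart. RNA was sequenced from whole cultures, in which a lower level per cell and fewer cells of a kind cannot be told apart.

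The column totals were between 30958870 and 76123207 counts, and the 36 members together held between 0.842% and 0.953% of them. Levels are given as CPM, the counts scaled to library totals and TMM factors. Without ligand *Srsf3* itself averaged 206 ± 6.59 CPM (SD, n = 3) under the scramble shRNA and 162 ± 1.46 CPM under the *Srsf3* shRNA, so that it fell by 21.04% (adjusted p = 7.95e-06). With ligand the means were 222 ± 8.07 and 165 ± 4.33 CPM, so that it fell by 25.8% (adjusted p = 9.54e-07). None of the 6 shSrsf3 samples reached the scramble samples, and neither difference was 2-fold. The study reported a larger fall of Srsf3 protein in the shSrsf3 line by western blot, so these RNA values do not give the loss of protein. The mesenchymal markers *Col1a1*, *Vim*, and *Prrx1* were abundant, but the palatal genes *Msx1*, *Osr2*, and *Shox2* were low and *Tbx22* was at 0 in all 12 libraries. *Shox2* was at 2.99 to 4.55 CPM in scramble and 11.97 to 13.3 CPM in shSrsf3 samples, *Msx1* at 1.26 to 1.81 and 0.547 to 1.00 CPM, and *Osr2* at 3.07 to 5.91 and 2.30 to 3.30 CPM. *Pdgfra*, the gene of the receptor for the ligand, was at 69.3 to 81.0 CPM in scramble and 49.4 to 53.4 CPM in shSrsf3 samples without ligand (log2 fold change -0.53 ± 0.06 (SE, adjusted p = 5.33e-06)), and at 59.01 to 60.4 and 44.3 to 47.8 CPM with ligand (-0.36 ± 0.06 (SE, adjusted p = 0.000185)). The part of these differences in the results on the lipid genes was not tested. Libraries 1 and 2 of scramble -PDGF-AA and library 2 of scramble +PDGF-AA have the lowest Salmon mapping rates in the read statistics of the study. The counts of called members and some other results are given with and without these 3 libraries. Other results that rest on them, among them those for *Srsf3*, *Pdgfra*, and the other gene lists, are given only with all samples. Leaving out these 3 libraries leaves 1 scramble -PDGF-AA sample, which the fit then assumes to vary like the other groups.

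The desaturase gene *Scd2* had the highest level per kilobase of transcript in all 4 groups. Its level in scramble -PDGF-AA samples was 388 CPM per kb, followed by 171 for the farnesyl diphosphate synthase gene *Fdps* and 146 for the cytosolic HMG-CoA synthase gene *Hmgcs1*, and these 3 genes held the same ranks in each group. The lowest levels in that group were 8.75 CPM per kb for *Soat1*, 7.74 for *Insig2*, 7.05 for *Npc1*, and 6.27 for *Acss2*. *Insig1* moved the most in rank, together with *Acat2* and *Hsd17b7*, each over 5 places among the 36. *Acaca*, *Elovl6*, *Mvk*, *Tm7sf2*, and *Soat1* kept their rank in all 4 groups. The order of the genes was thus nearly the same in every group, and the differences described here are small shifts around it. The order across genes rests on the length of 1 canonical transcript per gene, such as 3992 bases for *Npc2*, of which 447 are coding. Which transcripts the cells made was not examined, so ranks between genes are approximate.

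**Figure D1:**
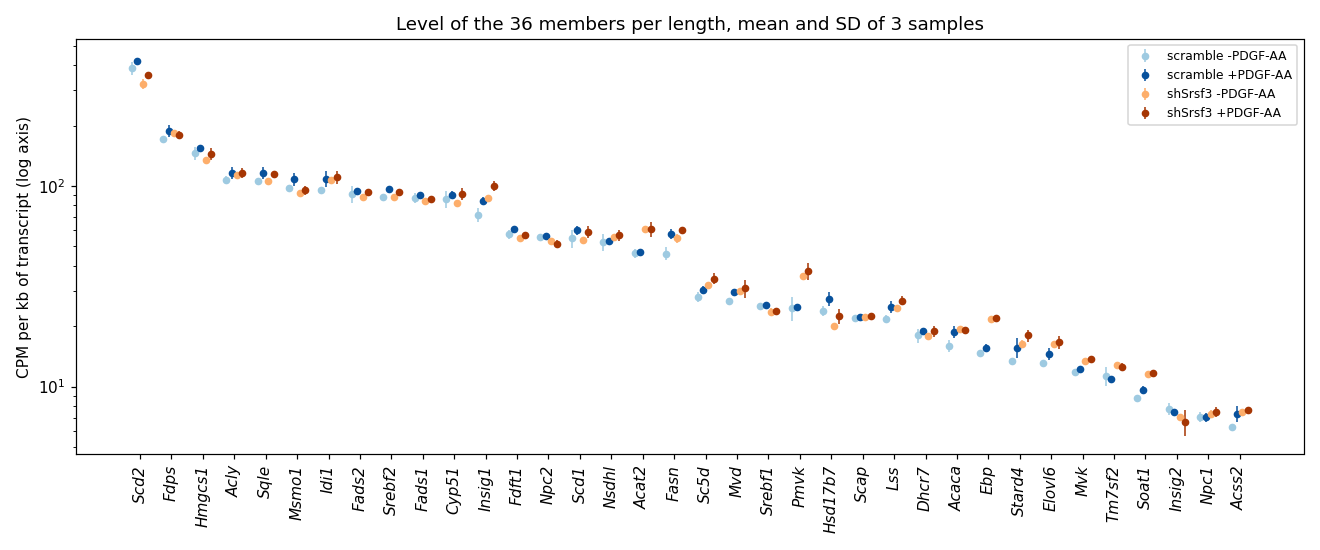
Mean level of each of the 36 members in CPM per kb of its canonical transcript, on a log axis, in the 4 groups; bars are the SD of 3 samples. *Scd2*, *Fdps*, and *Hmgcs1* lead in all 4 groups, and the groups lie close together for most genes.

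Promoters were searched, because SREBPs bind the sterol regulatory element, for the letters TCACNCCAC of that element on both strands of the window from 500 bases upstream to 50 bases downstream of the canonical start in GRCm39. The element occurred in 4 of 36 members (11.1%) and in 2.31% of 21769 coding gene promoters, or 2.37% of the 12903 whose genes were tested. The letters AGCCAAT, which hold the CCAAT box, occurred in 11 members (30.6%) against 11.7% of promoters and 12.8% of those of tested genes, and the E-box CACGTG, which reads the same on both strands, in 8 members (22.2%) against 11.2% and 13.8%. No site of one motif overlapped a site of another in the members. A match is a description of letters, and binding was not measured. The 5 sites of TCACNCCAC are shown because 3 of the 4 genes that carry them are also among the 4 members that rose upon PDGF-AA in scramble cells. The E-box of *Insig1*, the remaining such member, is shown with them. These sites were picked by the ligand result, and their part in it was not tested. The E-box also occurs in *Acaca*, *Acly*, *Elovl6*, *Fads1*, *Hsd17b7*, *Sc5d*, and *Scap*, of which only *Acaca* was called upon the ligand. *Insig1* also holds AGCCAAT 133 bases upstream, and these other sites are not shown. The 30 bases are written 5' to 3' along the strand of the gene, with the motif in capitals, and every motif shown lies upstream of the canonical start. The sites of *Fasn*, *Acaca*, and *Acss2* nevertheless lie inside the annotated spans of these genes, which begin further upstream than the canonical start. Which start is used in these cells was not measured.
*Fasn*, 146 bases upstream, chr11:120715062-120715091, minus strand: cgcgcgggcaTCACCCCACcggcggcggcg
*Acaca*, 98 bases upstream, chr11:84063840-84063869, plus strand: acaggcacacTCACACCACaccctgggtgc
*Acss2*, 239 bases upstream, chr2:155359619-155359648, plus strand: cctaacttggTCACTCCACagccttgcctc
*Acss2*, 186 bases upstream, chr2:155359672-155359701, plus strand: ctacaccccaTCACTCCACgggcccgcctc
*Hmgcs1*, 232 bases upstream, chr13:120151740-120151769, plus strand: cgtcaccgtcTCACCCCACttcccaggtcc
*Insig1* (E-box), 18 bases upstream, chr5:28276297-28276326, plus strand: gctgggtgaggtCACGTGgctccggtggca

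To examine Srsf3-dependent expression of these genes, scramble and shSrsf3 samples were compared within each ligand condition. In the absence of ligand, 18 of 36 members changed at an adjusted p of 0.05 or less (50%, against 45.9% of all tested genes), of which 16 were higher in shSrsf3 samples (44.4%, against 22.2% of all genes) and 2 were lower (5.56%, against 23.7%). Upon ligand stimulation, 14 members changed (38.9%, against 41% of all genes), 10 of them higher (27.8%, against 20.3%) and 4 lower (11.1%, against 20.7%). None of the 36 reached a 2-fold difference in either comparison, whereas 5.75% and 5.42% of all genes passed both the adjusted p and the 2-fold limit. The largest member estimates were those of *Pmvk* and *Ebp*, up to a log2 fold change of 0.60. The median log2 fold change of the members was 0.08 without ligand and 0.02 with ligand, against -0.02 and -0.01 over all genes, and the median absolute log2 fold change was 0.15 and 0.10, against 0.20 and 0.19. Without the 3 libraries of lower mapping rate, the member median was 0.13 without ligand and -0.02 with ligand, so that the latter turned in sign. The 3 scramble and 3 shSrsf3 samples did not overlap for 24 members without ligand (66.7%, against 53.3% of all genes) and for 15 with ligand (41.7%, against 52.6%).

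The 2 comparisons share no samples, and 12 members changed in the same direction in both (33.3%, against 33.7% of all genes). Of these, 10 were higher in shSrsf3 samples (27.8%, against 16.7%), namely *Mvk*, *Pmvk*, *Tm7sf2*, *Ebp*, *Sc5d*, *Insig1*, *Stard4*, *Soat1*, *Acat2*, and *Elovl6*. The other 2 were lower (5.56%, against 16.9%), namely *Hsd17b7* and *Scd2*. A further 6 changed only in the comparison without ligand (*Mvd*, *Idi1*, *Lss*, *Acss2*, *Fasn*, and *Acaca*, all higher), 2 only in that with ligand (*Msmo1* and *Npc2*, both lower), and 16 in neither. The difference between the comparisons passed its test for none of these genes, as given with the interaction. With ligand, the number of higher and lower members depended on single libraries. It was 10 and 4 with all samples, 8 and 8 without the 3 libraries of lower mapping rate (40.4% of all genes called), 6 and 5 without replicate 2 of scramble +PDGF-AA (37.4% of all genes called), and 6 and 6 without replicate 3 of shSrsf3 +PDGF-AA (34.5% of all genes called). Without ligand it was 16 and 2 with all samples and 15 and 2 without the 3 libraries (34.3% of all genes called).

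**Figure D2:**
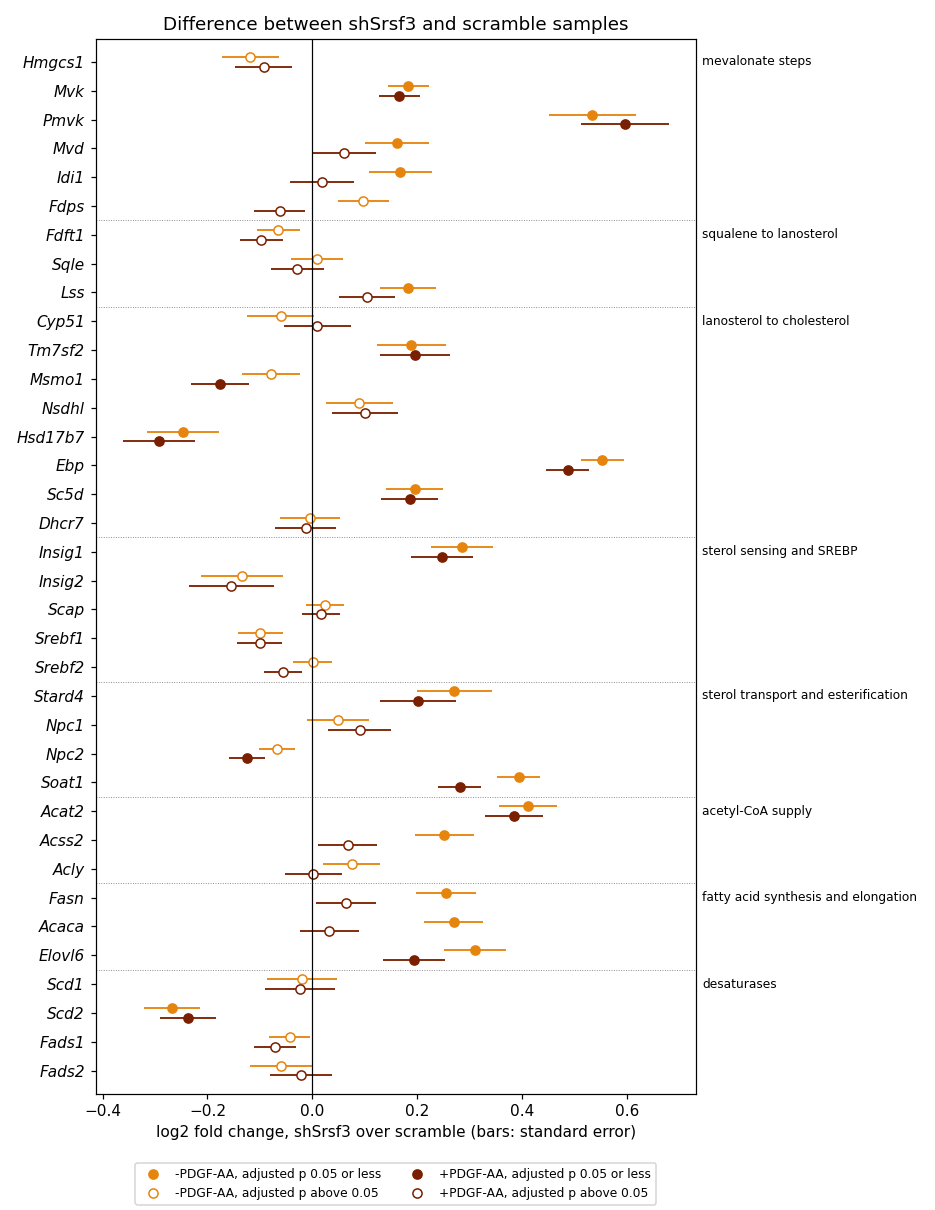
Log2 fold change of shSrsf3 over scramble samples for the 36 members, by role, without ligand (orange) and with ligand (brown); bars are standard errors and filled points have an adjusted p of 0.05 or less. Filled points lie mostly to the right of 0, with *Hsd17b7* and *Scd2* to the left in both comparisons, and all points lie below a log2 fold change of 1.

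**Figure D3:**
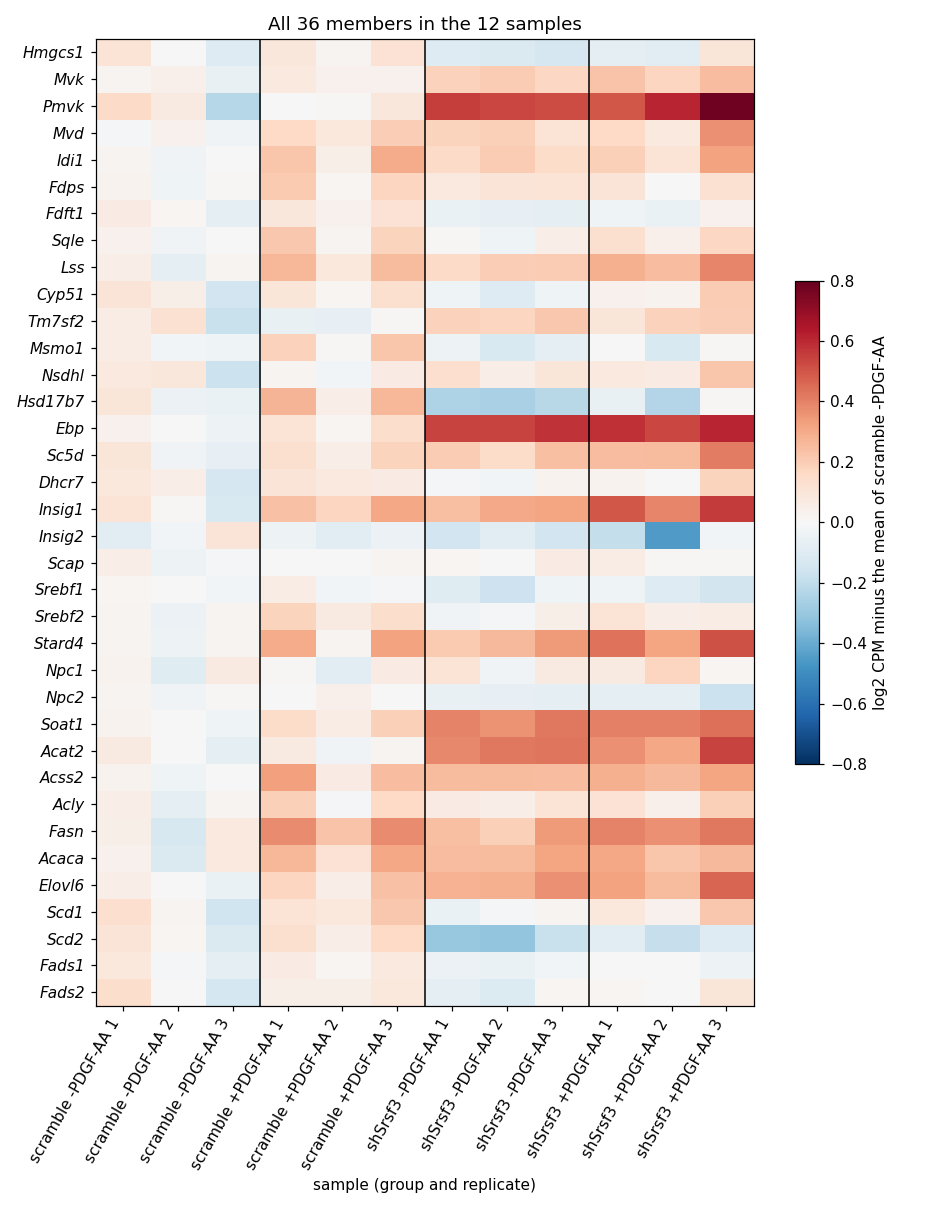
Log2 CPM of each member in each of the 12 samples, minus the mean of the 3 scramble -PDGF-AA samples of that gene; red is higher and blue is lower, and vertical lines separate the groups. *Pmvk*, *Ebp*, *Soat1*, and *Acat2* are among the genes that are red in all 6 shSrsf3 samples, and scramble +PDGF-AA replicate 2 is paler than the other 2 samples of its group.

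Of the 6 genes of the mevalonate steps, 4 were higher in shSrsf3 samples without ligand and 2 with ligand, and none was lower. Beside these counts and those of the roles below, 22.2% and 20.3% of all genes were higher without and with ligand. Lower were 23.7% and 20.7%. *Pmvk* (chr3:89361758-89376323), which encodes phosphomevalonate kinase, was detected at 32.4, 30.6, and 24.9 CPM in the scramble -PDGF-AA samples and at 42.7, 42.2, and 41.7 CPM in the shSrsf3 -PDGF-AA samples. With ligand the values were 29.2, 29.2, and 30.99 CPM in scramble and 41.1, 44.4, and 49.9 CPM in shSrsf3 samples. Every shSrsf3 sample lay above every scramble sample, with replicate 3 of scramble -PDGF-AA the lowest and replicate 3 of shSrsf3 +PDGF-AA the highest of the 12. These values gave a log2 fold change of 0.53 ± 0.08 (SE, adjusted p = 0.000162) without ligand and 0.60 ± 0.08 (SE, adjusted p = 6.91e-05) with ligand, an increase of 44.8% and 51.2%. *Mvk* (chr5:114582267-114601803), which encodes mevalonate kinase of the preceding step, was at 59.2, 59.8, and 55.9 CPM in scramble and 66.1, 67.04, and 65.2 CPM in shSrsf3 samples without ligand. In stimulated cells the values were 61.5, 59.7, and 59.7 CPM in scramble and 68.2, 65.6, and 69.1 CPM in shSrsf3 samples. The shSrsf3 samples were higher without overlap in both comparisons, by a log2 fold change of 0.18 ± 0.04 (SE, adjusted p = 0.00177) and 0.17 ± 0.04 (SE, adjusted p = 0.00388). *Mvd*, the diphosphomevalonate decarboxylase gene, and *Idi1*, the isopentenyl diphosphate isomerase gene, rose without ligand by 0.16 ± 0.06 (SE, adjusted p = 0.044) and 0.17 ± 0.06 (SE, adjusted p = 0.0358) on the log2 scale, but these calls were lost in 9 and 6 of 20 alternative settings, among them that without the 3 libraries of lower mapping rate. With ligand their estimates were 0.06 and 0.02. *Hmgcs1* had estimates of -0.12 and -0.09 and *Fdps* of 0.10 and -0.06, none of which passed the test.

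Among the 3 genes that lead to lanosterol, only *Lss*, the lanosterol synthase gene, passed the test. It rose without ligand by a log2 fold change of 0.18 ± 0.05 (SE, adjusted p = 0.0133), a call lost when replicate 2 of scramble -PDGF-AA was left out (adjusted p = 0.0622), and its estimate with ligand was 0.10 (adjusted p = 0.141). The squalene synthase gene *Fdft1* had estimates of -0.06 and -0.10, and the squalene epoxidase gene *Sqle* of 0.01 and -0.03.

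The 8 genes that convert lanosterol to cholesterol did not move together. Without ligand 3 rose and 1 fell, and with ligand 3 rose and 2 fell. *Ebp* (chrX:8050773-8059795), which encodes the sterol isomerase emopamil-binding protein, was at 26.3, 25.7, and 24.98 CPM in scramble -PDGF-AA samples and at 37.3, 37.3, and 38.3 CPM in shSrsf3 -PDGF-AA samples. After 1 hr of PDGF-AA its level was 27.7, 25.9, and 28.3 CPM and 38.4, 37.1, and 39.1 CPM. The shSrsf3 samples were separated from the scramble samples by a gap that was wider than the spread within any group. The fitted log2 fold change was 0.55 ± 0.04 (SE, adjusted p = 1.47e-07) and 0.49 ± 0.04 (SE, adjusted p = 5.80e-07), the former an increase of 46.7%, and both calls held in all 20 alternative settings. *Hsd17b7* (chr1:169777093-169796813), which encodes a ketosterol reductase, was at 118, 107, and 106 CPM in scramble and 92.5, 91.8, and 94.1 CPM in shSrsf3 samples without ligand. In the presence of ligand it measured 133, 114, and 132 CPM and 106, 93.3, and 111 CPM. All shSrsf3 samples were lower than the scramble samples of the same ligand condition. The log2 fold change was -0.25 ± 0.07 (SE, adjusted p = 0.00997) and -0.29 ± 0.07 (SE, adjusted p = 0.00386), and the call without ligand was lost when replicate 1 of scramble -PDGF-AA was left out (adjusted p = 0.0533). *Sc5d* (chr9:42162891-42175605), a sterol desaturase gene, was at 144, 133, and 129 CPM in scramble and 155, 149.9, and 159.9 CPM in shSrsf3 samples without ligand. Upon stimulation its values were 148, 140.1, and 153 CPM and 161, 161, and 179 CPM. The shSrsf3 samples were higher without overlap in both comparisons, by a log2 fold change of 0.20 ± 0.05 (SE, adjusted p = 0.00968) and 0.19 ± 0.05 (SE, adjusted p = 0.0144), the latter call lost without replicate 2 of scramble +PDGF-AA and without replicate 3 of shSrsf3 +PDGF-AA. *Tm7sf2* (chr19:6112851-6118403), a sterol reductase gene, was at 17.5, 18.3, and 14.8 CPM in scramble and 19.02, 18.9, and 19.5 CPM in shSrsf3 samples without ligand. In stimulated cells the values were 16.1, 16.00, and 16.9 CPM and 17.9, 19.1, and 19.2 CPM. The groups did not overlap, but the spread of the scramble -PDGF-AA samples was wide, and the log2 fold change of 0.19 ± 0.07 (SE, adjusted p = 0.0303) and 0.20 ± 0.07 (SE, adjusted p = 0.0306) lost its call in 5 and 4 of 20 alternative settings. *Msmo1*, a methylsterol monooxygenase gene, fell with ligand by a log2 fold change of -0.18 ± 0.05 (SE, adjusted p = 0.0195), with an estimate of -0.08 without ligand. Its samples overlapped between the lines with ligand, and the call was lost in 3 of 20 alternative settings, each leaving out 1 sample (replicate 1 or 3 of scramble +PDGF-AA or replicate 2 of shSrsf3 +PDGF-AA). The lanosterol demethylase gene *Cyp51*, *Nsdhl*, and *Dhcr7*, the reductase gene of the final step, did not pass the test and had estimates between -0.06 and 0.10.

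Of the 5 genes of sterol sensing and the SREBP pathway, only *Insig1* (chr5:28276315-28283668) changed. It was at 212, 197, and 180.3 CPM in the scramble -PDGF-AA samples and at 232, 242, and 244 CPM in the shSrsf3 -PDGF-AA samples. After 1 hr of PDGF-AA its level was 231, 220.4, and 242 CPM in scramble and at 277, 257, and 289 CPM in shSrsf3 samples. The samples of the 2 lines did not overlap in either condition, and the log2 fold change was 0.29 ± 0.06 (SE, adjusted p = 0.00147) and 0.25 ± 0.06 (SE, adjusted p = 0.00425). The transcription factor genes did not follow it, since *Srebf2* had estimates of 0.00 ± 0.04 and -0.06 ± 0.04, and *Srebf1* of -0.10 ± 0.04 and -0.10 ± 0.04 (SE). The adjusted p of *Srebf1* was 0.0725 and 0.0779. *Scap* lay between 90.6 and 97.3 CPM in all 12 samples, and *Insig2* had estimates of -0.13 and -0.15 at a level of 15.8 to 23.2 CPM. RNA levels do not show how much SREBP was cleaved.

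Of the 4 genes of sterol transport and esterification, 2 rose in both comparisons. *Soat1* (chr1:156252095-156303864), which encodes the enzyme that esterifies cholesterol for storage, was at 74.8, 73.5, and 71.4 CPM in scramble -PDGF-AA samples and at 96.3, 94.04, and 98.2 CPM in shSrsf3 -PDGF-AA samples. In the presence of ligand it measured 80.95, 76.4, and 83.6 CPM and 96.8, 96.9, and 99.2 CPM. The shSrsf3 samples stayed between 94.0 and 99.2 CPM in both conditions, above every scramble sample. These values gave a log2 fold change of 0.39 ± 0.04 (SE, adjusted p = 3.61e-06) and 0.28 ± 0.04 (SE, adjusted p = 8.32e-05). *Stard4*, which encodes a cytosolic sterol carrier, was at 72.4, 69.3, and 72.5 CPM in scramble and 82.7, 85.3, and 90.6 CPM in shSrsf3 samples without ligand. Upon stimulation its values were 87.5, 72.6, and 89.1 CPM and 96.4, 88.6, and 102 CPM, where shSrsf3 replicate 2 lay below scramble replicate 3. The fitted log2 fold change was 0.27 ± 0.07 (SE, adjusted p = 0.0073) and 0.20 ± 0.07 (SE, adjusted p = 0.0374), and the latter call was lost in 5 of 20 alternative settings, among them that without the 3 libraries of lower mapping rate. Of the genes for lysosomal cholesterol export, *Npc2* fell with ligand by a log2 fold change of -0.12 ± 0.03 (SE, adjusted p = 0.0109) with an estimate of -0.07 without ligand, a call lost without replicate 3 of shSrsf3 +PDGF-AA, and *Npc1* had estimates of 0.05 and 0.09.

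The 3 genes that make or use acetyl-CoA all had estimates above 0. *Acat2* (chr17:13161367-13179641), which encodes the cytosolic thiolase that starts the mevalonate pathway, was at 129, 123, and 117 CPM in scramble -PDGF-AA samples and at 160.1, 165, and 165 CPM in shSrsf3 -PDGF-AA samples. In stimulated cells the values were 129, 121, and 125 CPM and 158, 152, and 179 CPM. The lines did not overlap, and the log2 fold change was 0.41 ± 0.06 (SE, adjusted p = 4.66e-05) and 0.39 ± 0.06 (SE, adjusted p = 8.96e-05), both held in all 20 alternative settings. *Acss2*, which makes acetyl-CoA from acetate, rose only in the comparison without ligand, by 0.25 ± 0.06 (SE, adjusted p = 0.0024), with an estimate of 0.07 with ligand. *Acly*, which makes it from citrate, had estimates of 0.07 and 0.00.

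All 3 genes of fatty acid synthesis and elongation rose without ligand, and 1 of them, *Elovl6* (chr3:129326004-129432144), rose with ligand as well. *Elovl6*, the elongase gene for saturated chains, was at 83.2, 80.4, and 77.2 CPM in scramble and 97.5, 97.9, and 103 CPM in shSrsf3 samples without ligand. After 1 hr of PDGF-AA its level was 90.5, 83.1, and 94.6 CPM and 100.2, 95.8, and 111 CPM. The groups were apart in both conditions, and the log2 fold change was 0.31 ± 0.06 (SE, adjusted p = 0.000741) and 0.19 ± 0.06 (SE, adjusted p = 0.017), the latter call lost in 3 of 20 alternative settings, among them that without the 3 libraries of lower mapping rate. *Fasn*, the fatty acid synthase gene, and *Acaca*, the acetyl-CoA carboxylase gene, rose without ligand by 0.26 ± 0.06 (SE, adjusted p = 0.00247) and 0.27 ± 0.06 (SE, adjusted p = 0.00158), and had estimates of 0.06 and 0.03 with ligand. Their values in every sample are given with the response to the ligand.

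The desaturase genes had estimates below 0 in both comparisons, and 1 of the 4 passed the test. *Scd2* (chr19:44281613-44295303), which encodes a stearoyl-CoA desaturase, was at 2267, 2131, and 1952 CPM in scramble -PDGF-AA samples and at 1711, 1699, and 1866 CPM in shSrsf3 -PDGF-AA samples. In the presence of ligand it measured 2308, 2188, and 2362 CPM and 1990.4, 1859, and 1967 CPM. Every shSrsf3 sample was lower than the scramble samples of the same ligand condition, with the narrowest gap between shSrsf3 replicate 3 and scramble replicate 3 without ligand. The log2 fold change was -0.27 ± 0.05 (SE, adjusted p = 0.00112) and -0.24 ± 0.05 (SE, adjusted p = 0.00279), so that it fell by 16.9% without ligand and fell by 15.2% with ligand. Its paralog *Scd1* had estimates of -0.02 and -0.02, and *Fads1* and *Fads2*, which desaturate polyunsaturated chains, lay between -0.07 and -0.02.

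**Figure D4:**
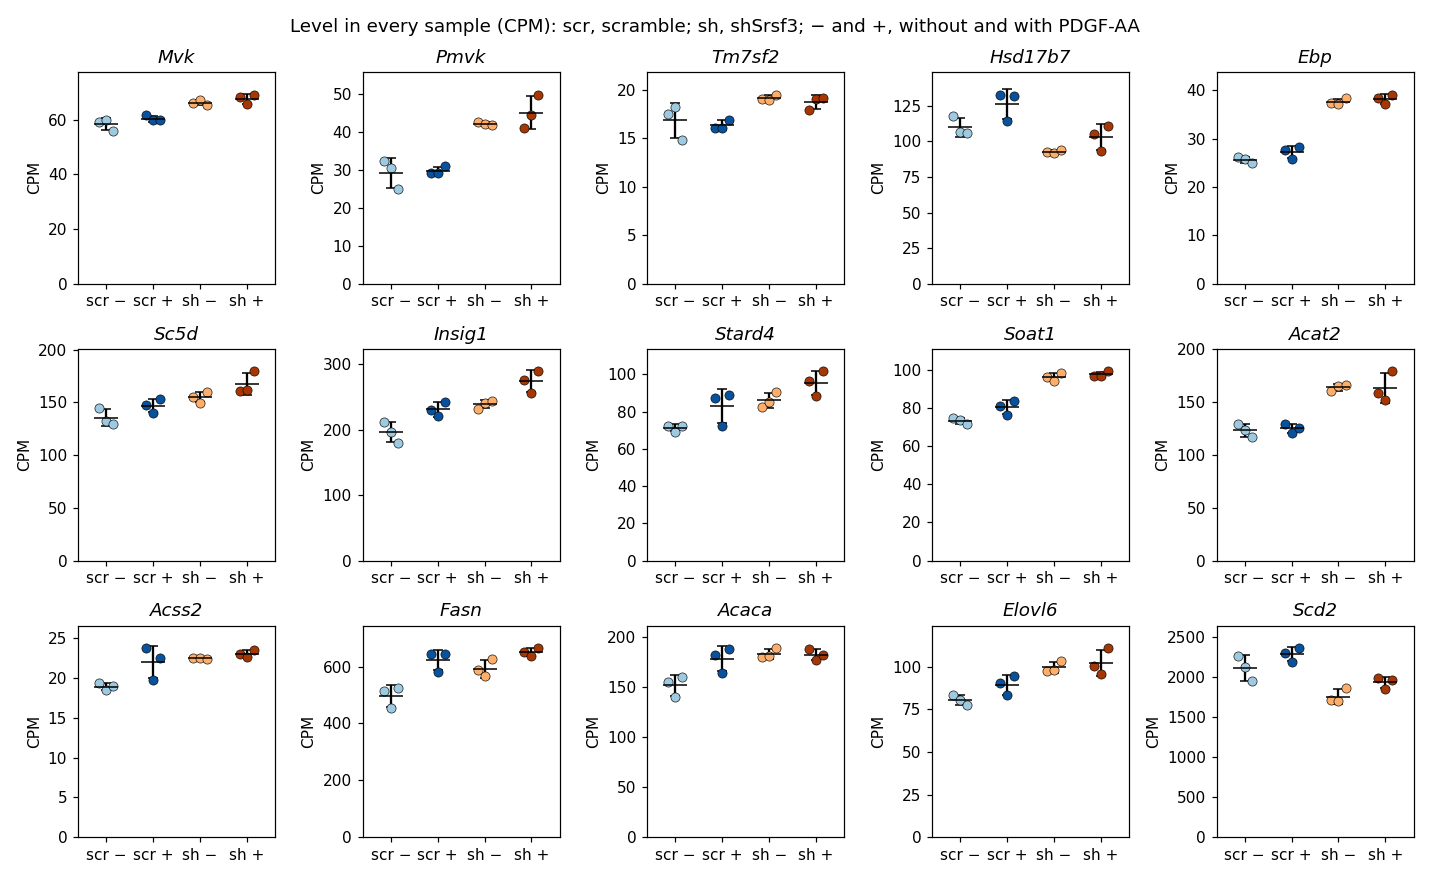
Level in CPM of the 15 members whose values are given for every sample; points are the 12 samples, horizontal bars the means, and vertical bars the SD of 3 samples, with each axis starting at 0. The shSrsf3 samples of *Mvk*, *Pmvk*, *Ebp*, *Soat1*, *Acat2*, and *Elovl6* lie above all scramble samples, and those of *Hsd17b7* and *Scd2* lie below the scramble samples of the same ligand condition.

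The response to the ligand was examined next by comparing +PDGF-AA with -PDGF-AA samples within each line. In scramble cells, 4 of 36 members rose (11.1%, against 4.04% of all genes called in either direction and 2% called higher) and none fell, and none reached 2-fold (0.2% of all genes). The stimulated and unstimulated samples did not overlap for 10 members, all of them higher with ligand (27.8%, against 18.8% of all genes in either direction and 8.92% higher). *Fasn* (chr11:120696672-120715995) was at 513, 454, and 523 CPM in scramble -PDGF-AA samples and at 644, 581, and 643 CPM in scramble +PDGF-AA samples. In shSrsf3 cells it was at 586, 565, and 627 CPM without and 652, 638, and 664 CPM with ligand. The stimulated samples were higher than the unstimulated samples of the same line in both lines, and the unstimulated scramble samples were the lowest of the 4 groups. These values gave a log2 fold change of 0.33 ± 0.06 (SE, adjusted p = 0.00558) in scramble cells, an increase of 25.4%, and 0.14 ± 0.06 (SE, adjusted p = 0.461) in shSrsf3 cells. *Acaca* (chr11:84020476-84292477) was at 155, 140.4, and 160.4 CPM in scramble samples without and 183, 164, and 188 CPM with ligand. In shSrsf3 cells it was at 180.0, 181, and 189 CPM without and 188, 177, and 182 CPM with ligand. It rose in scramble cells by 0.23 ± 0.06 (SE, adjusted p = 0.0363), whereas the shSrsf3 samples overlapped and gave -0.01 ± 0.06 (SE, adjusted p = 0.991). *Acss2* (chr2:155355679-155428016) was at 19.3, 18.4, and 18.9 CPM in scramble samples without and 23.7, 19.7, and 22.4 CPM with ligand. In shSrsf3 cells it was at 22.5, 22.5, and 22.4 CPM without and 22.95, 22.6, and 23.5 CPM with ligand. Its log2 fold change was 0.22 ± 0.06 (SE, adjusted p = 0.0444) in scramble and 0.03 ± 0.06 (SE, adjusted p = 0.921) in shSrsf3 cells, and replicate 2 of scramble +PDGF-AA, of lower mapping rate, was the closest to the unstimulated samples. *Insig1*, whose values are given above, rose in scramble cells by 0.24 ± 0.06 (SE, adjusted p = 0.0414) and had an estimate of 0.20 ± 0.06 (SE, adjusted p = 0.219) in shSrsf3 cells, with no overlap between stimulated and unstimulated samples in either line.

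The call for *Fasn* held in all 20 alternative settings, while those for *Insig1*, *Acaca*, and *Acss2* held in 13, 9, and 8 of 20. The number of members called in scramble cells was 13 without a filter on low counts (36.1%, against 4.75% of all genes), 10 with DESeq2 (27.8%, against 5.83% of all genes), 12 without the 3 libraries of lower mapping rate (33.3%, against 3.16%), and 13 without replicate 2 of scramble +PDGF-AA (36.1%, against 4.89%), and in each case all of them were higher. It was 6 without replicate 3 of scramble -PDGF-AA, where the calls over all genes rose to 9.8%. It was 1, *Fasn*, without replicate 2 of scramble -PDGF-AA, without replicate 1 or 3 of scramble +PDGF-AA, and without replicate 1 or 2 of shSrsf3 -PDGF-AA, which enters the shared estimate of the spread, with 1.62% to 3.36% of all genes called. It was 2 without replicate 1 of scramble -PDGF-AA, without replicate 3 of shSrsf3 -PDGF-AA, and without replicate 1 or 2 of shSrsf3 +PDGF-AA, with 3.11% to 3.56% of all genes called. Below the limit for a call, 33 of 36 members had an estimate above 0 in scramble cells (91.7%, against 46.5% of all genes), and 17 had an unadjusted p under 0.05 (47.2%, against 17.6%). Without the 3 libraries 33 estimates were above 0 as well. The members nearest to a call were *Lss* (0.20, adjusted p = 0.0507), *Srebf2* (0.13, adjusted p = 0.0701), and *Soat1* (0.13, adjusted p = 0.0875). The 36 genes share samples and regulators, so these counts are a description and do not stand for independent observations. The median log2 fold change of the members was 0.11, against -0.01 over all genes, and 0.21 without the 3 libraries of lower mapping rate.

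In shSrsf3 cells, no member passed the test upon ligand stimulation with edgeR (0 of 36, against 0.565% of all genes), with 6 members at an unadjusted p under 0.05 (16.7%, against 9.44%) and 1 call with DESeq2, for *Insig1*. Estimates were above 0 for 30 of 36 members (83.3%, against 48.2% of all genes), with a median of 0.04, and samples did not overlap for 11 members (30.6%, against 18%). The largest were 0.20 for *Insig1*, 0.15 for *Hsd17b7*, 0.15 for *Stard4*, and 0.15 for *Cyp51*. Leaving out replicate 3 of shSrsf3 +PDGF-AA, the shallowest library, left 26 estimates above 0.

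**Figure D5:**
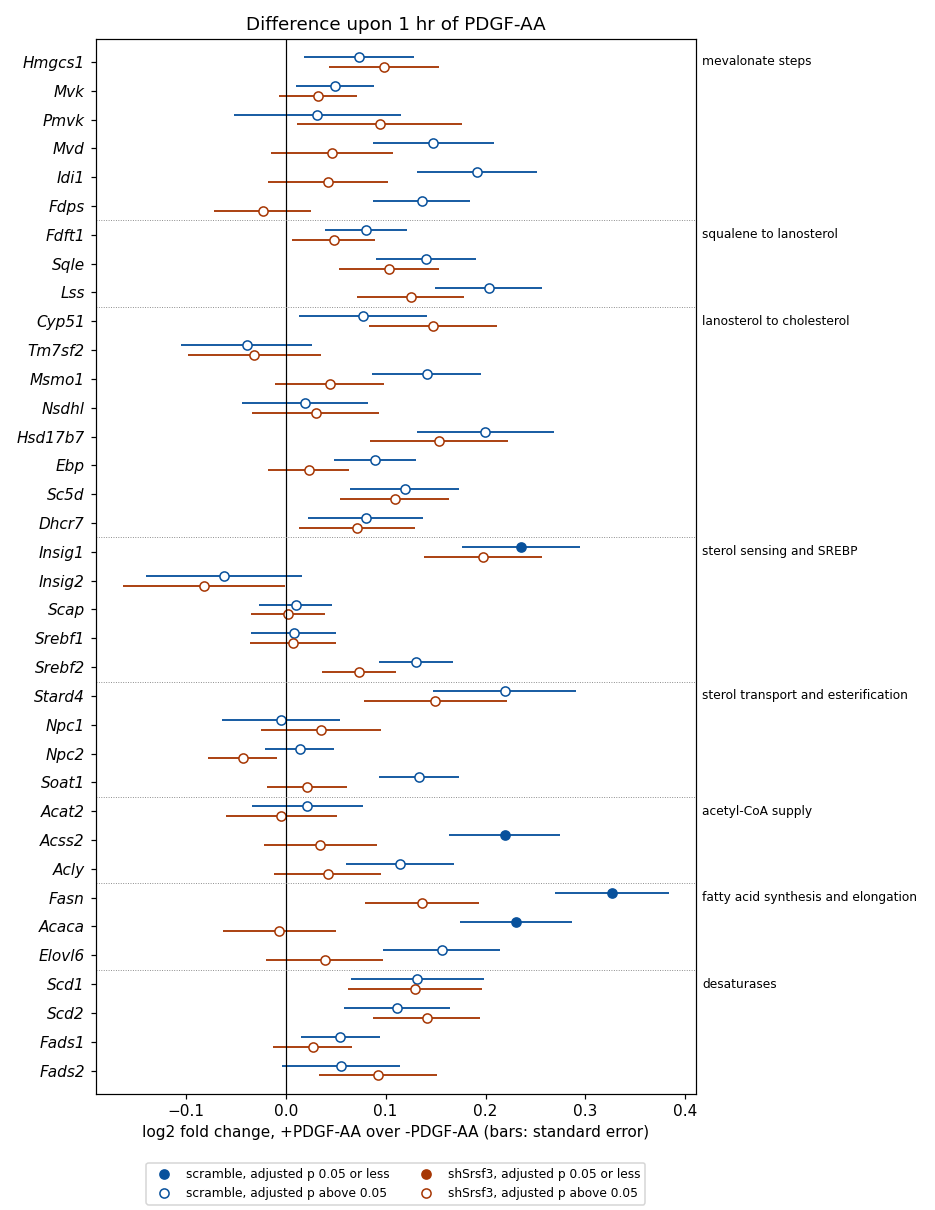
Log2 fold change of +PDGF-AA over -PDGF-AA samples for the 36 members, by role, in scramble (blue) and shSrsf3 (brown) cells; bars are standard errors and filled points have an adjusted p of 0.05 or less. Most points of both lines lie right of 0, and the 4 filled points are *Fasn*, *Insig1*, *Acaca*, and *Acss2* in scramble cells.

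Whether the response to the ligand differed between the lines was tested by the interaction of shRNA and ligand, and no member passed (0 of 36 with edgeR, against 0.0133% of all genes, and 0 with DESeq2 and limma). At an unadjusted p under 0.05 there were 4 members (11.1%, against 5.54%). These were *Acaca* with -0.24 ± 0.08 (SE, unadjusted p = 0.0106 and adjusted p = 0.806), *Fasn* with -0.19 ± 0.08, *Acss2* with -0.18 ± 0.08, and *Fdps* with -0.16 ± 0.07 on the log2 scale, all with a smaller response in shSrsf3 cells and an adjusted p of 0.874 for the last 3. Estimates were below 0 for 28 of 36 members (77.8%, against 48.4% of all genes), and this number was 20 without replicate 2 of shSrsf3 +PDGF-AA and 34 without the 3 libraries of lower mapping rate. The data do not show that a member responded differently in the 2 lines. The comparison of the lines without ligand and that of the ligand in scramble cells share the 3 scramble -PDGF-AA samples, which are the lowest group for *Fasn*, *Acaca*, *Acss2*, and *Insig1*. The log2 fold changes in these 2 comparisons were 0.26 and 0.33 for *Fasn*, 0.27 and 0.23 for *Acaca*, 0.25 and 0.22 for *Acss2*, and 0.29 and 0.24 for *Insig1*. Of these 3 shared samples, 2 are among the libraries of lower mapping rate. Leaving out all 3 such libraries leaves replicate 3 as the only scramble -PDGF-AA sample. That setting therefore cannot decide whether the results for the 4 genes depend on the shared samples. Replicate 3 was the lowest of the 3 shared samples for *Insig1* and the highest for *Fasn* and *Acaca*. An exact permutation test of 3 against 3 samples cannot give a p below 0.1 and was not used for single genes.

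Other genes of lipid metabolism were counted from a list of 56, of which 52 passed the filter. Between the lines 10 rose and 12 fell without ligand, and 11 rose and 12 fell with ligand. These were 42.3% and 44.2% of the 52, near the 45.9% and 41% of all genes. *Acsl1*, which activates long-chain fatty acids, had a mean of 14.98 ± 0.683 CPM (SD, n = 3) under the scramble shRNA and 6.17 ± 0.567 CPM under the *Srsf3* shRNA without ligand, and fell by a log2 fold change of -1.29 ± 0.08 (SE, adjusted p = 3.23e-08) and -1.09 ± 0.08 (SE, adjusted p = 1.91e-07). *Dhdds*, which encodes a subunit of the enzyme that makes the dolichol precursor, fell by -0.62 ± 0.04 (SE, adjusted p = 8.28e-08) and -0.58 ± 0.04 (SE, adjusted p = 2.06e-07). *Acss3*, a mitochondrial acyl-CoA synthetase gene, rose by 1.72 ± 0.22 (SE, adjusted p = 2.88e-05) and 1.18 ± 0.22 (SE, adjusted p = 0.00064), and *Acsl6* by 1.05 ± 0.23 (SE, adjusted p = 0.0023) and 0.86 ± 0.24 (SE, adjusted p = 0.0109), both from levels near or below 1 CPM in scramble samples. *Elovl3* was lower by -0.92 ± 0.35 (SE, adjusted p = 0.046) without ligand and gave -0.97 ± 0.38 (SE, adjusted p = 0.0555) with ligand, at levels under 1 CPM. Upon ligand stimulation 1 of the 52 rose in scramble cells (1.92%, near the 2% of all genes called higher). None changed in shSrsf3 cells (against 0.565% of all genes). The gene that rose was *Mid1ip1*, which encodes an activator of acetyl-CoA carboxylase, with a log2 fold change of 0.17 ± 0.04 (SE, adjusted p = 0.0434).

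Of a list of 15 genes of proliferation, 9 were higher in shSrsf3 samples without ligand (60%, against 22.2% of all genes) and 6 with ligand (40%, against 20.3%), none was lower, and 6 and 9 did not pass the test, with a median log2 fold change of 0.18 and 0.11. Upon ligand stimulation none of the 15 changed in either line (against 4.04% of all genes in scramble and 0.565% in shSrsf3 cells). Their part in the differences of the lipid genes was not tested. Of 7 adipocyte markers, *Cidec* and *Cfd* were at 0 in all 12 libraries, whereas *Pparg* was detected at 5.95 to 7.98 CPM and made up nearly all of the sum. That sum was 6.34 to 7.51 CPM in scramble and 7.62 to 8.20 CPM in shSrsf3 samples without ligand, and 6.29 to 6.77 and 7.37 to 7.65 CPM with ligand. The other markers were near 0, with *Fabp4* at most 0.374 CPM and *Adipoq*, *Plin1*, and *Lep* at most 0.0644 CPM. The sum, in effect that of *Pparg* alone, was thus higher in the shSrsf3 samples of the same ligand condition. Its part in the result was not tested. Epithelial markers summed to 4.75 to 6.18 CPM in scramble and 2.86 to 4.25 CPM in shSrsf3 samples. Among them *Cdh1* was lower in shSrsf3 samples, at 1.81 to 2.85 and 0.376 to 0.676 CPM, whereas *Trp63* overlapped between the lines. Markers of blood summed to at most 2.34 CPM and those of muscle to at most 0.579 CPM. Endothelial markers, nearly all of it *Tek*, summed to 30.5 to 34.6 CPM in scramble and 19.1 to 22.6 CPM in shSrsf3 samples, and neural markers, nearly all of it *Tubb3*, to 28.3 to 31.5 CPM and 20.1 to 24.7 CPM. The endothelial genes did not move together, since *Tek* was lower in shSrsf3 samples while *Cdh5*, at 0.124 to 0.322 CPM in scramble and 1.29 to 1.61 CPM in shSrsf3 samples, and *Kdr*, at 0.182 to 0.365 and 0.471 to 0.725 CPM, were higher.

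Some members share sequence with other genes, so that reads may have been divided between copies. By the share of 31-base sequences of their transcripts that also occur in another gene, 9 members exceeded 5%. *Acaca* shared 31.1%, most of it with *Gm5182*, which held 144 to 451 counts against 5653 to 13898 for *Acaca*. *Acat2* shared 22.3%, most of it with *Acat3* at 7 to 35 counts, and *Idi1* shared 18.4%, most of it with *Idi1-ps1* at 724 to 1642 counts. *Tm7sf2* overlaps *Vps51* on the same strand and had fewer counts than it, 596 to 1469 against 848 to 2072, so that its level is uncertain. *Ebp*, *Fasn*, *Mvd*, *Nsdhl*, *Insig2*, and *Fads1* shared no such sequence.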

How the data were processed

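RNA was sequenced from 12 samples in 4 groups of 3 biological replicates, grouped by their labels. After BBDuk trimming, the authors estimated transcript abundance against GENCODE on GRCm39 in Salmon (1.4.0 in the submitters' processing notes) and summed it per gene with tximport, whose scaling option is not given in the sources used here. The deposited values are expected counts, that is, estimated read pairs per gene, and 16.3% were not whole numbers. They were rounded, filtered with filterByExpr (minimum count 10), normalized by TMM, and tested with the quasi-likelihood test of edgeR 4.0.16 in 1 model of 12 samples. The p-values were adjusted by the Benjamini-Hochberg method over 15037 genes. A gene was called changed when its adjusted p did not exceed 0.05, and DE when it also differed by at least 2-fold. The tests are two-sided, and their p-values measure the spread between replicates of 1 line per shRNA. Column totals of 30958870 to 76123207 set the precision, and the common biological coefficient of variation was 0.0701. The script was tested on simulated data with known fold changes.

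The members and lists were chosen with earlier results of these data known. Values are given in full for members that changed in the same direction in both comparisons of the lines (up to the 12 with the largest mean difference), that were DE, or that changed upon ligand or in the interaction, and, of the other lipid genes, for the 4 largest called changes in each comparison of the lines. Genes were placed, and promoters read, with GENCODE M39 on GRCm39, in which all 36 members matched. R 4.3.3, DESeq2 1.42.0, limma 3.58.1, Python 3.11, and matplotlib 3.10.9 were also used. Alternatives were DESeq2 size factors, DESeq2, limma, no filter, a replicate block, the compared groups alone, equal depth, leaving out the 3 libraries of lower mapping rate, and leaving out each sample.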

Additional observations from a re-analysis of the deposited data

How the results depend on the processing

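Of the 36 member calls, 22 held in all of the 20 alternative settings, 14 were lost in some, and none turned its direction. The number of members called between the lines was 15 to 19 without ligand and 11 to 15 with ligand when 1 sample was left out. In these settings 5838 to 7202 and 5245 to 6678 of all tested genes were called. Upon ligand in scramble cells it was 1 to 13 against 4 with all samples, 13 without a filter on low counts, 10 with DESeq2, 12 without the 3 libraries of lower mapping rate, and 1 with the compared groups alone. In shSrsf3 cells it was 0 to 0 when 1 sample was left out, 2 without a filter, and 1 each with DESeq2, with the compared groups alone, and without the 3 libraries. For the interaction it was 0 in every setting, and 0 to 0 with 1 sample left out. With a 2-fold limit in addition, the count was 0 in each comparison. The causes of these shifts were not tested. Upon ligand in shSrsf3 cells, 374 of 27138 genes were called without a filter and 213 of 15037 with DESeq2. With the compared groups alone, 201 of 14016 genes were called in shSrsf3 cells and 247 of 14684 in scramble cells. With a replicate block the counts were 17 and 14 between the lines, 5 and 0 upon ligand, and 0 for the interaction. Of 15037 genes, that setting called 6982 and 6223 between the lines, 625 and 93 upon ligand, and 1 for the interaction. Deviations of samples with the same replicate number had correlations of -0.327 to 0.484, against -0.637 to 0.528 for different numbers. The ends of both ranges came from the ligand comparison in scramble cells, and the other comparisons lay between -0.202 and 0.175. In scramble cells, replicate 2 with ligand had correlations of 0.391, 0.484, and -0.637 with replicates 1, 2, and 3 without ligand. The first 3 libraries of these pairs are those of lower mapping rate. The deviations of the 3 samples of a group sum to 0, so these values cannot decide whether the numbers pair the samples. In the comparisons of the lines and of the ligand, DESeq2 size factors moved the median of all genes by at most 0.00794 on the log2 scale. Leaving out the filter on low counts moved it by at most 0.0131. Precision is limited by 3 samples per group and by depth for genes of low counts.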
